A study of Mus musculus with 12 samples.

Results

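The integrated stress response regulators are 10 genes of the ATF4 branch of stress signalling, picked by symbol from the deposited gene counts: the transcription factors Atf4, Atf5, Atf3, Ddit3, Cebpb and Cebpg, and the regulatory target genes Trib3, Chac1, Ddit4 and Sesn2. They are 10 of 52535 gene entries, and all 10 were among the 14946 genes that passed the filter on low counts. The cells were E14 mouse embryonic stem cells, grown with serum, LIF and the kinase inhibitor mix 2i, with 2 libraries from each of 3 groups: KO2 (clone 2 of a Bcat1 knockout), KO1 (clone 1 of the same knockout) and WT (wild-type E14). Each knockout group is a single clone, so the 4 libraries labelled knockout hold 2 clones and are not 4 independent replicates. Nothing in the labels ties the replicates to separate cultures, and the p-values therefore cover the spread between libraries, which may be technical.

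In the integrated stress response, kinases that sense amino acid shortage, misfolded protein, heme deficiency or double-stranded RNA phosphorylate the translation factor eIF2. Most protein synthesis then slows, while upstream open reading frames let Atf4 and Atf5 mRNA be translated more. ATF4 pairs with C/EBP proteins on C/EBP-ATF response elements and drives genes for amino acid synthesis, amino acid import and tRNA charging. Bcat1 encodes the cytosolic branched-chain aminotransferase, an enzyme of leucine, isoleucine and valine metabolism. RNA levels do not report how much ATF4 protein was made.

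The promoter windows of all 10 genes were found in RefSeq on GRCm38.p6, each holding 250 bases before and 50 after the transcription start. The core of the C/EBP-ATF response element, TGATGNAA on either strand, lay in the windows of 3 of the 10 genes, Atf3, Trib3 and Chac1, and in those of 4.51% of 27025 genes. The cAMP response element TGACGTCA, on either strand, lay in none of the 10 windows and in those of 2.03% of genes. The 2 matches upstream of a start are shown because they are the letters that ATF4 and its C/EBP partners are known to bind, with the match in capitals, 5′ to 3′ on the gene's strand.
Atf3: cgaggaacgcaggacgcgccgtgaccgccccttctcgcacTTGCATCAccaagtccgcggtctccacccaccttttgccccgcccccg
Chac1: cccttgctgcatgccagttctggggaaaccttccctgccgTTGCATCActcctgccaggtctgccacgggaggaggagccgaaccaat
The Atf3 stretch is chr1:191183396-191183483 on the minus strand, with the match 110 bases upstream of the RefSeq start, and it lies inside the longer Atf3 entry of GENCODE M21. The Chac1 stretch is chr2:119351009-119351096 on the plus strand, with the match 193 bases upstream. The same 8 letters stand in both, on the strand opposite to the motif as spelled, and the match in Trib3 lies after the start. A match is a description of letters, not a binding site, and Atf3 and Chac1 did not behave alike in these cells.

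Across the series, gene counts totalled 11976149 to 13923262 per library, and KO1 had more genes with a count (21878 and 21637) than the other 4 libraries (20365 to 20725). Bcat1 stood at 583 and 579 CPM (counts scaled to library size) in KO2, 617 and 662 in KO1, and 602 and 614 in WT. Its log2 fold change in the libraries labelled knockout against WT was 0.01 ± 0.08 (SE), with an adjusted p of 0.977 by edgeR's quasi-likelihood test. An edit that spares the mRNA would look the same, so every direction given here rests on the labels. All 10 stem cell markers stood at 210 CPM or more in every library. Their sum was 6900 to 6917 CPM in KO2, 6680 to 6725 in KO1 and 7218 to 7400 in WT. By edgeR, 2 were lower than WT in KO2 (Sox2 and Tdgf1), beside 7.81% of all tested genes, and 0 were higher. In KO1, 3 were lower (Sox2, Klf4 and Dppa5a), beside 9.53%, and 0 higher. Sox2 had log2 fold changes of -0.28 in KO2 (adjusted p = 0.0293, edgeR) and -0.32 in KO1 (0.0115). The Dppa5a call was lost under upper-quartile scaling. Of other cell types, the summed level of 10 fibroblast markers was 22.8 to 24.8 CPM in KO2, 35.4 to 39.2 in KO1 and 25 to 25.8 in WT, with 3 of the 10, Dcn, Lum and Postn, at 0 throughout. Col1a2 of that list was higher in both clones, at 11 and 18 reads in KO2, 22 and 15 in KO1, and 0 and 1 in WT (genotype adjusted p = 0.012, edgeR, lost without either WT library). Thy1 and Col5a2 were higher in KO1 than in WT by edgeR (adjusted p = 0.0311 and 0.0423) but not by DESeq2. Between KO2 and KO1, 2 of 6 tested fibroblast markers were lower in KO2 and 0 higher, beside 7.71% and 6.62% of all tested genes. The 2 were Thy1 (log2 fold change -1.88, adjusted p = 0.00095 by edgeR and 0.000789 by DESeq2) and Pdgfrb (-0.48, adjusted p = 0.0208, edgeR). DESeq2 did not call Pdgfrb. Summed primitive endoderm markers (8 genes, nearly all from the laminin gene Lama1) stood at 436 to 443 CPM in KO2, 258 to 285 in KO1 and 301 to 325 in WT. Of 5 tested, 4 had a log2 fold change above 0 in each clone against WT. Gata4 was higher in KO1 (1.43, adjusted p = 0.0159, edgeR) and Dab2 in KO2 (2.73, adjusted p = 0.0158, edgeR), at means of 2 and 0.64 CPM. DESeq2 called neither. Lama1 was higher in KO2 (0.48, adjusted p = 0.000427, edgeR) and lower in KO1 (-0.24, adjusted p = 0.0452, edgeR, lost by DESeq2). Summed trophoblast markers (9 genes) stood at 83.4 to 88.7 CPM in KO2, 83.9 to 99.5 in KO1 and 114 to 125 in WT. Among these, the homeobox factor Cdx2 stood at 6.33 and 3.48 CPM in KO2, 2.3 and 1.46 in KO1, and 28.9 and 22.3 in WT (genotype log2 fold change -2.92 ± 0.40, adjusted p = 0.00355), and Gata2 was lower too (-1.99 ± 0.26, adjusted p = 0.00276), both calls being lost without WT replicate 1. Eomes of the same list was higher in KO1 than in WT (log2 fold change 0.92, adjusted p = 0.000814, edgeR). It was lower in KO2 than in KO1 (-0.85, adjusted p = 0.00229, edgeR). Tfap2c, Krt8 and Krt18 passed in no comparison, and Gata3, Elf5 and Hand1 were not tested. The part of all these markers in the results was not tested, and in such bulk RNA a change per cell and a change in the share of cells cannot be told apart.

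The 2 clones differed in most of these genes. Between KO2 and KO1, Atf4, Atf5, Ddit3, Cebpb, Cebpg, Trib3 and Chac1 were higher in KO2, by 1.35-fold for Cebpg to 3.56-fold for Atf5, and Atf3, Ddit4 and Sesn2 did not pass the test. Thus 7 of 10 members were called higher by edgeR at an adjusted p under 0.05, where 14.3% of all tested genes were called, 6.62% higher and 7.71% lower in KO2. The median log2 fold change of the 10 members was 0.71, and that of all tested genes was 0.00. The members were chosen with earlier results of these data known, so these shares do not measure how unusual they are. Against WT, KO1 was lower in 7 members (Atf4, Atf5, Ddit3, Cebpb, Trib3, Chac1 and Sesn2) and higher in 1 (Ddit4), beside 21.9% of all genes called, 9.53% lower and 12.4% higher. KO2 was higher than WT in 4 members (Atf5, Ddit3, Trib3 and Chac1) and lower in 2 (Cebpb and Sesn2), beside 17.9% of all genes called, 10.1% higher and 7.81% lower. These comparisons with WT share the WT libraries, so their values stand side by side here and are not set against each other.

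**Figure D1:**
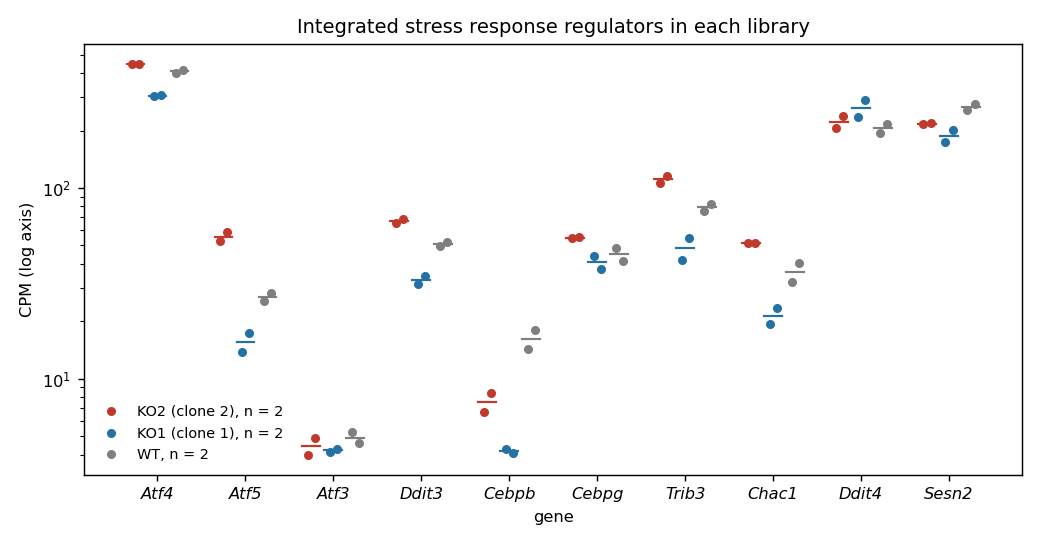
Level of each regulator in CPM (log axis), with 1 point per library and a line at the mean of each group (n = 2 libraries). KO2 lay above KO1 in both libraries for 8 of the 10 genes, and for 6 of those (Atf4, Atf5, Ddit3, Cebpg, Trib3 and Chac1) KO2 also lay above WT.

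Among the factors at the head of the pathway, Atf4 (chr15:80255184-80257541, plus strand, GRCm38) stood at 449 and 448 CPM in KO2, 302 and 307 in KO1, and 401 and 415 in WT. The groups did not overlap, with KO2 highest and KO1 lowest. The log2 fold change of Atf4 was 0.56 ± 0.07 (SE) between KO2 and KO1 (adjusted p = 8.2e-05, edgeR) and -0.42 ± 0.07 between KO1 and WT (adjusted p = 0.00061). Between KO2 and WT its log2 fold change was 0.14 ± 0.07, which did not pass the test (adjusted p = 0.225).

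Atf5, a factor of the same family whose mRNA is translated by the same mechanism, differed most between the clones among the 10 genes. It stood at 52.5 and 58.7 CPM in KO2, 13.8 and 17.4 in KO1, and 25.7 and 28.1 in WT, again with no overlap and the same order. The log2 fold change was 1.83 ± 0.13 between KO2 and KO1 (adjusted p = 1.25e-07), 1.05 ± 0.13 between KO2 and WT (1.84e-05) and -0.78 ± 0.14 between KO1 and WT (0.000634, all edgeR). An end exon of Atf5 (chr7:44812256-44816658, minus strand) overlaps up to 82 bases of an exon of Nup62, a nuclear pore gene on the other strand. Nup62 did not pass the test between KO2 and KO1 (log2 fold change 0.24 ± 0.09, adjusted p = 0.0971).

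Ddit3 encodes CHOP, a C/EBP-related factor known for promoting cell death under lasting stress. It stood at 65.4 and 69.1 CPM in KO2, 31.5 and 34.4 in KO1, and 49.8 and 52.3 in WT, so that every KO2 library exceeded every WT library and every WT library exceeded every KO1 library. The log2 fold change was 1.03 ± 0.11 between KO2 and KO1 (adjusted p = 5.19e-06) and -0.63 ± 0.11 between KO1 and WT (0.000417). Between KO2 and WT it was 0.40 ± 0.10 (adjusted p = 0.012, edgeR), a call that was lost without KO2 replicate 1 (0.0729), KO2 replicate 2 (0.138), WT replicate 1 (0.131) or WT replicate 2 (0.0694). Ddit3 (chr10:127290774-127296288, plus strand) overlaps Mars, a tRNA synthetase gene on the other strand, by up to 68 exon bases, and Mars itself, an ATF4 target, was 0.42 ± 0.08 higher on the log2 scale in KO2 than in KO1 (adjusted p = 0.00113). The strand setting of the counting is not given, so reads from the shared bases cannot be assigned.

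Cebpg, a short C/EBP protein that pairs with ATF4, stood at 54.8 and 55.1 CPM in KO2, 43.8 and 37.7 in KO1, and 48.2 and 41.4 in WT. KO2 lay above both other groups, while KO1 and WT overlapped. Its log2 fold change between KO2 and KO1 was 0.43 ± 0.12 (adjusted p = 0.0175), and the call was lost without KO2 replicate 1 (0.112) or KO2 replicate 2 (0.105). Neither KO2 against WT (0.30 ± 0.11, adjusted p = 0.0854) nor KO1 against WT (-0.14, adjusted p = 0.428) passed edgeR's test. Cebpa, the tested gene next to Cebpg on chromosome 7 at 69.1 kb, had a log2 fold change of -1.82 between KO2 and KO1 (adjusted p = 0.0228), at a mean of 1.08 CPM.

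Atf3, a stress-induced factor that binds the same kinds of element, was the least abundant of the 10 genes per length of exon. It stood at 3.97 and 4.90 CPM in KO2, 4.12 and 4.30 in KO1, and 5.25 and 4.58 in WT. KO2 overlapped both other groups and KO1 lay below WT. In none of the comparisons did it pass, with log2 fold changes of 0.08 ± 0.26 between KO2 and KO1, -0.14 between KO2 and WT, and -0.22 between KO1 and WT, and edgeR adjusted p of 0.886, 0.751 and 0.579. At 47 to 68 reads per library, a log2 difference of 0.56 between the clones, the size of that in Atf4, lay within 2 SE of the estimate.

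Trib3 and Chac1 are targets of ATF4 and CHOP. Trib3, a pseudokinase that binds ATF4 and dampens it, stood at 107 and 116 CPM in KO2, 42.1 and 54.5 in KO1, and 75.9 and 82.3 in WT. Its log2 fold change was 1.2 ± 0.11 between KO2 and KO1 (adjusted p = 2.41e-06), 0.49 ± 0.11 between KO2 and WT (0.00501) and -0.71 ± 0.12 between KO1 and WT (0.000282, all edgeR). The order KO2, WT, KO1 held with no overlap, although the call of KO2 over WT was lost without KO2 replicate 2 (adjusted p = 0.0653) or WT replicate 1 (0.103). Chac1, an enzyme that breaks down glutathione, stood at 51.4 and 51.4 CPM in KO2, 19.3 and 23.4 in KO1, and 31.9 and 40.3 in WT. It showed the same order with no overlap, with a log2 fold change of 1.27 ± 0.14 between KO2 and KO1 (adjusted p = 8.02e-06) and -0.76 ± 0.14 between KO1 and WT (0.00074). Between KO2 and WT it was 0.51 ± 0.13 (adjusted p = 0.0105), which was lost without KO2 replicate 1 (0.0772), KO2 replicate 2 (0.0568) or WT replicate 1 (0.195).

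Ddit4 and Sesn2, which encode inhibitors of the growth kinase complex mTORC1, did not follow this order. Ddit4, also known as REDD1 and induced by low oxygen as well as by ATF4, stood at 206 and 238 CPM in KO2, 236 and 290 in KO1, and 194 and 218 in WT. KO2 overlapped both other groups and KO1 lay above WT, by a log2 fold change of 0.36 ± 0.10 (adjusted p = 0.0199, edgeR). That call was lost without KO1 replicate 2 (0.0573), WT replicate 1 (0.235) or WT replicate 2 (0.0598). Between KO2 and KO1 the log2 fold change was -0.25 ± 0.10 (adjusted p = 0.128), which passed without KO1 replicate 1 (9.34e-05).

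Sesn2, a leucine-binding protein through which amino acids reach mTORC1, stood at 216 and 219 CPM in KO2, 173 and 201 in KO1, and 257 and 276 in WT. Both clones lay below WT, by a log2 fold change of -0.29 ± 0.09 in KO2 (adjusted p = 0.0258) and -0.51 ± 0.09 in KO1 (0.000467, edgeR). The call in KO2 was lost without KO2 replicate 1 (0.179), KO2 replicate 2 (0.149), WT replicate 1 (0.0852) or WT replicate 2 (0.221), and that in KO1 held without each library in turn. KO2 and KO1 did not overlap, but their log2 fold change of 0.22 ± 0.09 did not pass (adjusted p = 0.113), although it did without KO1 replicate 2 (0.00115).

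**Figure D2:**
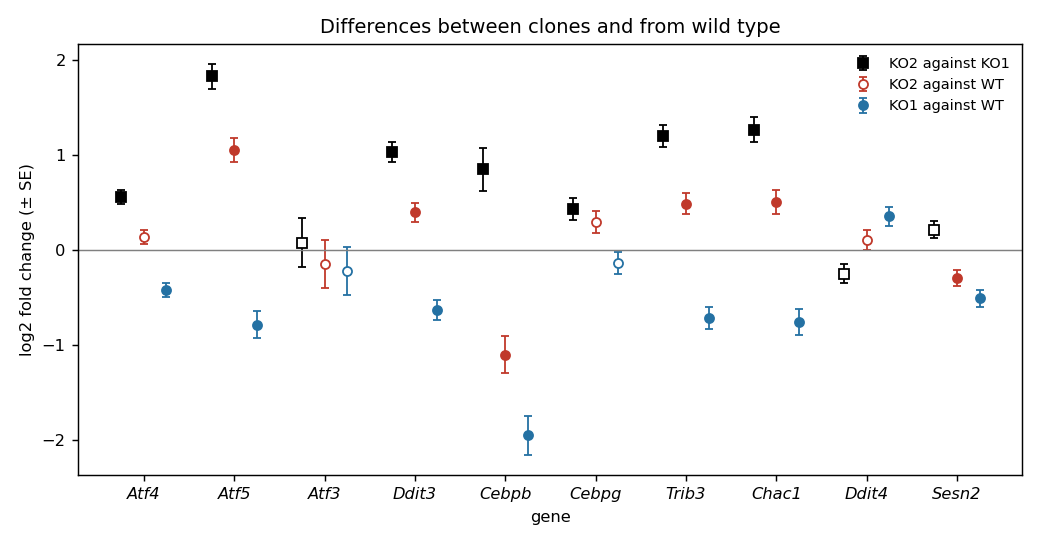
Log2 fold change of each regulator between KO2 and KO1 (squares), KO2 and WT (red circles) and KO1 and WT (blue circles), with bars of 1 SE and filled symbols for an adjusted p under 0.05 by edgeR. Atf5, Ddit3, Trib3 and Chac1 lay above 0 in KO2 and below 0 in KO1, whereas Cebpb and Sesn2 lay below 0 in both clones.

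Taking both clones as 1 genotype, the libraries labelled knockout differed from WT in 1 of the 10 members, Cebpb, where 6.36% of all tested genes were called, 4.25% higher and 2.11% lower. The median log2 fold change of the members was -0.01. Sesn2 missed the threshold with a log2 fold change of -0.40 ± 0.10 (adjusted p = 0.0514), and it passed under 7 of 13 alternatives, among them DESeq2 (0.0108), without a filter on low counts (0.00412) and without KO1 replicate 1 (0.0436) or KO2 replicate 2 (0.0481). For the other 8 members the adjusted p ran from 0.306 to 0.993. Since KO2 and KO1 lay on opposite sides of WT for Atf4, Atf5, Ddit3, Trib3 and Chac1, a genotype mean describes neither clone for these genes.

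Cebpb, a C/EBP factor that pairs with ATF4 and also works in differentiation and inflammation, was lower in both clones. It stood at 6.67 and 8.38 CPM in KO2, 4.28 and 4.07 in KO1, and 14.3 and 18 in WT, with no overlap between any of the groups. The log2 fold change was -1.10 ± 0.19 in KO2 (adjusted p = 0.000725) and -1.95 ± 0.21 in KO1 (4.56e-06) against WT, and 0.85 ± 0.22 between KO2 and KO1 (0.0165, all edgeR). As 1 genotype it was -1.47 ± 0.28 (adjusted p = 0.0161). The genotype call was lost without WT replicate 1 (0.129) or WT replicate 2 (0.217), and the difference between the clones without KO2 replicate 2 (0.17).

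The genes around Cebpb (chr2:167688915-167690418, plus strand) were lower too. Of 34 tested genes with a mean of 1 CPM or more within 2 Mb on each side, 23 were lower and 2 higher in KO2, and 25 were lower and 1 higher in KO1, against WT. Their median log2 fold change was -0.79 in KO2 and -0.89 in KO1. Cebpb minus that median was -0.31 in KO2 and -1.06 in KO1 on the log2 scale. Between KO2 and KO1 the neighbours had a median of 0.07, and Cebpb stood 0.78 above it. Tmem189, whose exon overlaps Cebpb by 312 bases on the other strand, had log2 fold changes of -0.78 ± 0.13 in KO2 (adjusted p = 0.00038) and -0.70 ± 0.13 in KO1 (0.000764), and -0.08 between the clones. Around the other 8 members with a called change, the neighbours' median lay between -0.05 and 0.15 in KO2 and between -0.11 and 0.05 in KO1 against WT. Trib3 and Chac1, also on chromosome 2, lie outside the window around Cebpb.

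**Figure D3:**
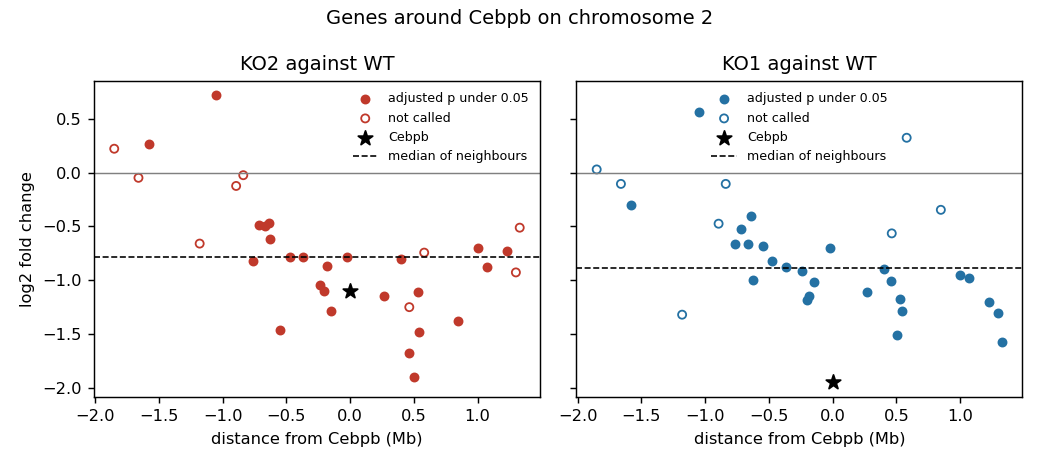
Log2 fold change of 34 genes around Cebpb by their distance from it in megabases, for KO2 against WT (left) and KO1 against WT (right), with filled points for an adjusted p under 0.05 by edgeR. The dashed line is the neighbours' median (-0.79 in KO2 and -0.89 in KO1), and Cebpb (star) minus that median was -0.31 in KO2 and -1.06 in KO1.

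The genes whose centred log2 CPM ran closest to Cebpb over the 6 libraries were Tbc1d13, Nrp2, Grb10, Hmga2 and Myc, at root mean square differences of 0.17 to 0.26. In KO2 their log2 fold changes against WT lay between -1.21 (Grb10) and -0.79 (Hmga2), and in KO1 between -1.72 (Tbc1d13) and -1.53 (Myc). This is a description over 6 libraries, chosen for the likeness. Tbc1d13 is on chromosome 2 but far from Cebpb, and the other 4 are on other chromosomes.

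Per kilobase of exon, Atf4 was the most abundant of the 10 genes, at 190 CPM per kb in KO2, 129 in KO1 and 173 in WT, except in KO1, where Ddit4 led at 150. Sesn2 (62.6, 53.9 and 76.6 CPM per kb in KO2, KO1 and WT), Trib3 (52.3, 22.7 and 37.2), Ddit3 (39.3, 19.2 and 29.8) and Chac1 (31.4, 13.0 and 22.1) came next after Atf4 and Ddit4 in every group. Cebpb stood at 5.00 CPM per kb in KO2, 2.78 in KO1 and 10.7 in WT, which put it above Cebpg (9.78, 7.24 and 7.98) in WT and below it in both clones.

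Downstream of the regulators, the enzyme, transporter and tRNA synthetase genes driven by ATF4 differed between the clones too. Of 39 such genes that are not members, 38 were tested (Fgf21 was not), and 35 were higher in KO2 than in KO1 by edgeR, beside 6.62% of all genes; the other 3, Asns, Vldlr and Eif4ebp1, had log2 fold changes of 0.17, 0.41 and 0.29 that did not pass. The list's median log2 fold change was 0.53. This list, too, was chosen with earlier results of these data known. All 13 genes of tRNA charging and export were called higher (median 0.45), as were all 9 amino acid transporters (median 0.50), 9 of 10 enzymes of amino acid and one-carbon synthesis (median 0.76) and 4 of 6 other targets (median 0.94). The cystine importer Slc7a11 had the highest log2 fold change, 2.04 (adjusted p = 0.00278), at a low mean of 1.80 CPM.

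Against WT, KO2 was higher in 16 of these 38 genes and lower in 1, the arginine transporter Slc7a3 (log2 fold change -0.26). Over all tested genes, 10.1% were higher and 7.81% lower. KO1 was lower in 24, beside 9.53% of all tested genes. The count in KO2 fell to 8 without KO2 replicate 1, KO2 replicate 2 or WT replicate 1 and to 10 without WT replicate 2, and that in KO1 fell to 15 without WT replicate 2. In KO2 the genes above WT were 7 of 10 enzymes, 5 of 9 transporters, 3 of 6 other targets and 1 of 13 tRNA genes, Aars. In KO1 the genes below WT were 11 of 13 tRNA genes, 5 each of the enzymes and transporters, and 3 of 6 other targets. As 1 genotype none of the 38 passed edgeR's test, 3 had an unadjusted p under 0.05, and DESeq2 called 1 lower. Without a filter beyond 1 count, 1 was higher and 3 lower, and the mean of both clone contrasts, which leaves the difference between the clones out of the spread, called 3 higher and 10 lower.

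The 4 targets with the smallest p in either clone against WT did not all run alike, and that choice favours a large change in 1 clone. Gpt2, a transaminase that makes alanine, stood at 245 and 251 CPM in KO2, 124 and 122 in KO1, and 142 and 139 in WT, and most of its difference was a gain in KO2 (log2 fold change 0.82 ± 0.08 against WT, adjusted p = 1.3e-06). Slc38a2, a neutral amino acid transporter, stood at 282 and 262 CPM in KO2, 156 and 157 in KO1, and 273 and 267 in WT, so that KO2 and WT overlapped and KO1 alone was lower (-0.79 ± 0.08, adjusted p = 2.16e-06). Nupr1, a small stress-induced chromatin protein, followed Slc38a2, with 63.0 and 71.3 CPM in KO2, 32.6 and 32.5 in KO1, and 60.5 and 65.1 in WT. Psat1, an enzyme of serine synthesis, stood at 723 and 691 CPM in KO2, 402 and 361 in KO1, and 626 and 597 in WT, with a log2 fold change of -0.68 ± 0.08 in KO1 against WT (adjusted p = 1.12e-05). Both KO2 libraries lay above WT, with a log2 fold change of 0.21 ± 0.08 that did not pass (adjusted p = 0.0758, edgeR).

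**Figure D4:**
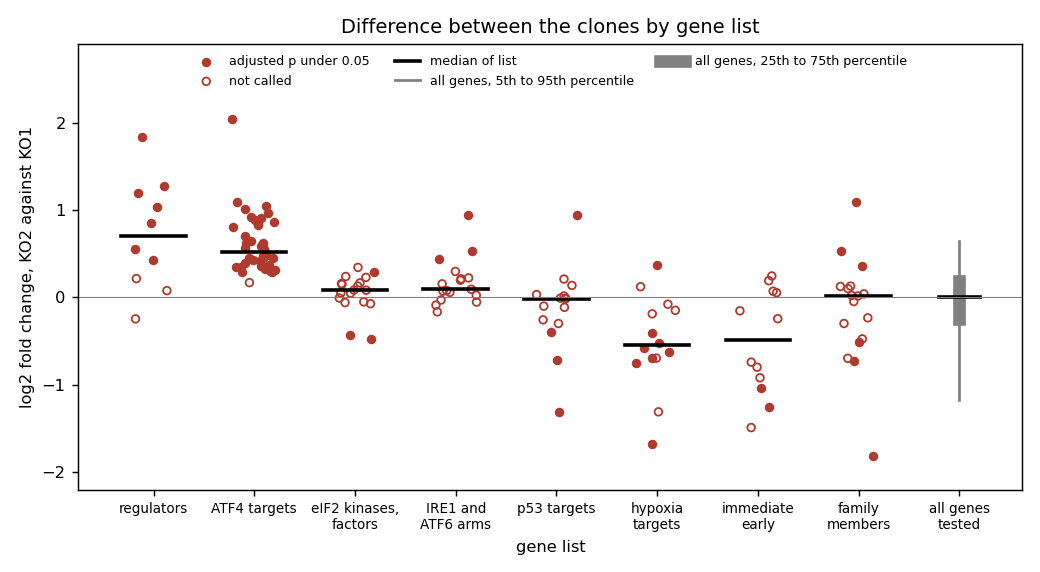
Log2 fold change between KO2 and KO1 of the 10 regulators, the 38 tested ATF4 targets and 6 other gene lists, 1 point per gene, filled for an adjusted p under 0.05 by edgeR, with a black line at each list's median and the spread of all 14946 tested genes at the right. The medians of the regulators (0.71) and ATF4 targets (0.53) lay above 0 and those of the hypoxia targets (-0.55) and immediate early genes (-0.49) below 0. Single genes lay on the other side among the regulators (Ddit4) and the hypoxia list (Vegfa and Hif1a, which encodes a HIF factor itself), as did 4 of 12 immediate early genes.

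Upstream of ATF4, the 18 genes for eIF2 kinases, eIF2 and eIF2B subunits, phosphatase subunits and their regulators did not shift as a list between the clones. KO2 was higher in 1 and lower in 2, beside 6.62% and 7.71% of all tested genes. The list's median log2 fold change was 0.08. Leaving out 1 library, the first count ran up to 4 (without KO1 replicate 2) and the second was 0 without KO2 replicate 2 or either WT library. As 1 genotype, 3 were lower in the libraries labelled knockout, beside 2.11% of all tested genes. Eif2b5, a subunit of the eIF2 exchange factor, stood at 418 and 393 CPM in KO2, 390 and 376 in KO1, and 539 and 547 in WT (log2 fold change -0.46 ± 0.07, adjusted p = 0.00788). Eif2s2, the beta subunit of eIF2, was lower by a log2 fold change of -0.46 ± 0.08 (adjusted p = 0.0123), and Impact, an inhibitor of the amino acid sensing kinase GCN2, by -0.47 ± 0.10 (0.0266, all edgeR). All 3 lay below WT in every library labelled knockout, and all 3 calls were lost without either WT library. Among the 4 kinases, Eif2ak2, the sensor of double-stranded RNA, was higher in KO1 than in WT under every alternative run, with a log2 fold change of 0.84 (adjusted p = 0.000222, edgeR). KO2 had a log2 fold change of 0.41 against WT (adjusted p = 0.0439), lost under DESeq2 (0.102) and without either KO2 or either WT library. Between KO2 and KO1 it was -0.43 (adjusted p = 0.0347), lost under DESeq2 (0.0815), with only the 4 libraries compared, and without any single library except KO1 replicate 2. Eif2ak4, which encodes GCN2, had log2 fold changes of -0.01 between KO2 and KO1, -0.04 in KO2 and -0.03 in KO1 against WT.

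Other stress programmes share inducers or targets with these genes. Beside the counts between the clones given here, 6.62% of all tested genes were higher in KO2 than in KO1 and 7.71% lower. Of 17 genes of the IRE1 and ATF6 arms of the unfolded protein response, KO2 was higher than KO1 in 3, Herpud1, Hyou1 and Sel1l (log2 fold changes 0.94, 0.53 and 0.44), and in 5 without KO1 replicate 1. The chaperone gene Hspa5 did not pass (0.09, adjusted p = 0.454). Xbp1, the factor of the IRE1 arm, was higher in both clones, with a genotype log2 fold change of 0.42 ± 0.09 (adjusted p = 0.0309, lost without 5 of the 6 libraries in turn). The p53 list held 15 tested genes, among them targets such as the Sesn2 relative Sesn1 and also Trp53 itself. KO2 was higher than KO1 in 1, the cell cycle inhibitor Cdkn1a (0.94), and lower in 3, Zmat3, Btg2 and Pmaip1 (-0.40, -0.72 and -1.31). Without KO1 replicate 2 the higher count was 4, and without KO1 replicate 1 the lower count was 5. Trp53inp1, a p53 target that acts in autophagy, was lower in both clones (genotype log2 fold change -0.37 ± 0.09, adjusted p = 0.0397, edgeR), a call lost without WT replicate 1 (0.359), WT replicate 2 (0.215), KO1 replicate 2 (0.0571), KO2 replicate 1 (0.0555) or KO2 replicate 2 (0.0731).

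Hypoxia targets, which share the low oxygen response with Ddit4, were compared in the same way. The 14 genes of this list include Hif1a, which encodes a HIF factor itself. KO2 was lower than KO1 in 7 and higher in 1, Hif1a, beside 7.71% and 6.62% of all tested genes. The other 6 did not pass, and the list's median log2 fold change was -0.55. Against WT, KO1 was higher in 10 and lower in 1, again Hif1a, beside 12.4% and 9.53% of all tested genes. KO2 was higher than WT in 3 and lower in 1, beside 10.1% and 7.81%. The count of 3 was 0 without KO2 replicate 2 and 1 without KO2 replicate 1 or either WT library. Egln3, an oxygen sensor that marks HIF proteins for breakdown, stood at 25.8 and 31.7 CPM in KO2, 46.7 and 42.4 in KO1, and 19.1 and 17.3 in WT. Its log2 fold change was -0.63 ± 0.13 between KO2 and KO1 (adjusted p = 0.00278), a call lost without KO2 replicate 1 (-0.49, adjusted p = 0.0846). Both clones lay above WT (genotype log2 fold change 1.01 ± 0.23, adjusted p = 0.0289, edgeR), a call lost without either WT library or KO1 replicate 2 and with the replicate block (0.0652). Ak4, a mitochondrial adenylate kinase, was also higher in both clones (0.43 ± 0.09, adjusted p = 0.0229, lost without either WT library). The count of 10 in KO1 was 6 without WT replicate 1, and that of 7 between the clones was 4 without KO2 replicate 1.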

How the data were processed

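Gene counts of 6 libraries of rRNA-depleted total RNA were analysed, and 6 further samples were not analysed here. The values are the deposited counts of reads per gene, whole numbers without normalisation. Tools listed in the submitters' processing notes, with no roles, are DESeq2 1.18.1, HISAT2 2.1.0 and HTSeq 0.9.1, with the build mm10. The annotation, strand setting and counting filters were not given in the sources used here. HTSeq's 5 summary rows (36.4% to 40.0% of reads) stayed out.

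Tests used edgeR 4.0.16 in R 4.3.3 (TMM, filterByExpr over groups, quasi-likelihood F test, two-sided, Benjamini-Hochberg over 14946 genes at 0.05): a 2-level fit for genotype and a 3-group fit for KO2 against KO1 and each clone against WT. CPM used TMM-scaled library sizes. SE is the size of the log2 fold change over the square root of F. Both libraries of each group differed by more than sampling noise (chi-square per gene of 3.27 in KO2, 8.79 in KO1 and 3.57 in WT).

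The members and the 11 other gene lists were chosen with earlier results of these data known. Besides members and Bcat1, up to 4 called genes per list with the smallest genotype p (otherwise smallest clone p) were named by rule. Also named were list genes that make up counts of 5 or fewer, extreme or uncalled genes of the ATF4 target list and 2 kinases. So were Thy1, Col5a2, Vegfa, Hspa5, Sesn1, Trp53 and the trophoblast markers other than Cdx2 and Gata2. All of these were chosen after their values were seen. Likeness used mean CPM of at least 10. GENCODE M21 (GRCm38, same assembly as mm10) gave positions and exon lengths. Each fit was tested on simulated data. For the genotype fit these held no difference between the clones, so its behaviour under such a difference was not tested. Alternatives were DESeq2 1.42.0, RLE or upper-quartile scaling, other filters, a replicate block, 4 libraries only, averaging both clone contrasts and dropping each library in turn. Figures used matplotlib 3.10.9.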

Additional observations from a re-analysis of the deposited data

Results flagged for a closer look

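KO2 and KO1 differed by the direct test between the clones in 18 of the 37 members and named genes looked at, 7 of them members. The log2 fold changes of KO2 against KO1 were 0.56 for Atf4, 1.83 for Atf5, 1.03 for Ddit3, 0.85 for Cebpb, 0.43 for Cebpg, 1.2 for Trib3 and 1.27 for Chac1. Among the ATF4 targets they were 1.01 for Gpt2, 0.80 for Slc38a2, 1.05 for Nupr1 and 0.89 for Psat1.

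In the other lists, the log2 fold change of KO2 against KO1 was -0.63 for Egln3 (hypoxia), and -1.04 for Ier3 and -1.26 for Ier5 (immediate early genes). It was 0.37 for the stem cell factor Klf4, -0.36 for the Nodal co-receptor gene Tdgf1, 0.72 for the endoderm marker Lama1 and 1.38 for the trophoblast factor Cdx2, which was below WT in both clones (-2.39 in KO2 and -3.76 in KO1). The calls between the clones were lost without KO2 replicate 1 for Egln3 (adjusted p = 0.0846, edgeR), Cdx2 (0.166, at 0.89), Klf4 (0.0602) and Tdgf1 (0.071), and without KO2 replicate 2 for Klf4 (0.132), Tdgf1 (0.0954), Cebpb (0.17) and Cebpg (0.105). That of Cebpg was also lost without KO2 replicate 1 (0.112). No gene had a single library far from the other libraries of the 4 labelled knockout. That check pools 2 clones that differed in many of these genes. It therefore says little about libraries of 1 clone that disagree, such as those of Ier5 in KO1 (10.1 and 19.3 CPM). Because many of these genes were named for a small p in a clone contrast, the share that differed is no measure of how common such differences are.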

How the results depend on the processing

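Over 13 alternatives, the 10 members and 4 comparisons gave 520 values: 471 kept direction and side of the threshold, 15 gained and 21 lost a call, and 13 turned sign. Calls between the clones held for Atf4, Atf5, Ddit3, Trib3 and Chac1 under every alternative run. The genotype comparison depended most on processing. Its count of 951 genes was 1752 without a filter beyond 1 count and 3226 with the mean of both clone contrasts, and 79 to 948 with each library left out. It called 2 members under upper-quartile scaling, DESeq2, no filter beyond 1 count, a mean CPM of at least 1 or the mean of both clone contrasts, and 0 to 2 with each library left out (0 without either WT library). KO2 against WT gave 2674 genes, 4065 with only the 4 libraries compared, and 1165 to 4191 with each library left out, with 2 to 7 members. KO1 against WT gave 3280 genes, and 1576 to 4310 with 7 to 8 members. KO2 against KO1 gave 2141 genes, and 974 to 3155 with 5 to 8 members. Fewer libraries per group lower the power; otherwise the cause was not tested.

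Genotype log2 fold changes, none of them called, turned sign for Ddit3 without KO1 replicate 1 (0.14), KO1 replicate 2 (0.12) or WT replicate 2 (0.0055), and for Cebpg without WT replicate 2 (-0.01, with each library left out -0.0128 to 0.205). They turned for Trib3 without KO2 replicate 1 (-0.17), KO2 replicate 2 (-0.23) or WT replicate 1 (-0.05) and with the mean of both clone contrasts (-0.11). They turned for Chac1 without KO2 replicate 1 (-0.21), KO2 replicate 2 (-0.21) or WT replicate 1 (-0.15) and with the mean of both clone contrasts (-0.13). They turned for Bcat1 with no filter (-0.0011), without KO1 replicate 2 (-0.0351) or without WT replicate 1 (-0.01), and with each library left out ran from -0.0351 to 0.0281. Between KO2 and KO1, Atf3 turned without KO2 replicate 2 (-0.08).

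The labels do not say whether same-numbered replicates were paired. Over the tested genes, their deviations correlated at 0.13 (KO2 and KO1), -0.01 (KO2 and WT) and 0.05 (KO1 and WT), which cannot settle it. With the replicate block the counts were 646 genes for genotype, 4410 for KO1 against WT, 3685 for KO2 against WT and 3007 for KO2 against KO1, with 1, 8, 7 and 9 members. The block added Ddit4 (-0.24, adjusted p = 0.00936, edgeR) and Sesn2 (0.22, 0.0243) between KO2 and KO1, and Cebpg (0.30, 0.0284) between KO2 and WT. Depth limits Atf3 and Cebpb most, at 47 to 68 and 53 to 244 reads per library.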

Other observations

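Of the remaining lists, the immediate early genes and the relatives of the regulators gave a mixed picture. Beside their counts, 6.62% of all tested genes were higher in KO2 than in KO1 and 7.71% lower. Against WT the shares higher and lower were 10.1% and 7.81% in KO2, and 12.4% and 9.53% in KO1. Of 15 immediate early genes, 12 were tested (Fosb, Egr1 and Egr2 were not). KO2 was lower than KO1 in Ier3, a survival gene, at 12.7 and 14.3 CPM in KO2, 28.9 and 26.8 in KO1, and 12.1 and 17.1 in WT. KO2 was also lower in Ier5, at 5.07 and 7.12 CPM in KO2, 10.1 and 19.3 in KO1, and 14 and 15.1 in WT. Thus KO1 alone stood above WT for Ier3. For Ier5 both KO2 libraries stood below WT, while KO1 replicate 1 lay below WT and KO1 replicate 2 above it. The log2 fold change of Ier5 in KO1 against WT ran from -0.54 to 0.40 over the alternatives. That between KO2 and KO1 ran from -1.65 to -0.72. Against WT, KO2 was lower in 3 of these genes, Ier5, Fosl1 and Dusp1, and KO1 was higher in 2, Ier3 and Jun, and lower in 1, Btg1. The calls of Fosl1 and Dusp1 were both lost without KO2 replicate 1 or WT replicate 2, that of Fosl1 also without KO2 replicate 2 and that of Dusp1 without WT replicate 1. DESeq2 did not call Jun (adjusted p = 0.0544) or Btg1 (0.0668). The Jun call was lost without KO1 replicate 2 or WT replicate 1, and the Btg1 call under upper-quartile scaling, with only the 4 libraries compared, and without any single library except KO1 replicate 2.

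Of 17 tested relatives of the regulators, KO2 was higher than KO1 in Jdp2, Creb3 and Atf6b (log2 fold changes 1.09, 0.53 and 0.35) and lower in Cebpa, Sesn3 and Ddit4l (-1.82, -0.51 and -0.72). Jdp2 was also counted among the ATF4 targets. DESeq2 called 1 of the 17 higher and 1 lower, and without either KO2 library edgeR called 1 higher and 0 lower. Trib1, a pseudokinase related to Trib3, stood at 12.7 and 14.3 CPM in KO2, 13.6 and 14.3 in KO1, and 9.18 and 8.05 in WT. Both clones lay above WT and overlapped each other, unlike Trib3, with a genotype log2 fold change of 0.67 ± 0.16 (adjusted p = 0.042, edgeR), lost without any 1 of the 6 libraries.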
